A study of Homo sapiens with 6 samples.

Results

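The NDRG family has 4 human genes, NDRG1, NDRG2, NDRG3 and NDRG4, named after N-myc downstream regulated gene. All 4 were found by symbol in the deposited expression table, among 42495 gene rows, and all 4 were among the 23608 genes tested. RNA was measured in Panc-1 cells (a line established from a human carcinoma of the pancreas) treated for 72 h with medium conditioned by cancer-associated fibroblasts (CAFs). The CAFS-CM group (3 samples) received medium of the line CAFS1, derived from a tumor of a patient sensitive to platinum chemotherapy, and the CAFR-CM group (3 samples) medium of the line CAFR1, from a patient resistant to it. Each medium came from 1 CAF line, and no sample without conditioned medium was analysed here, so p-values below cover the spread among samples of 1 line per group, which the study calls biological replicates, and say nothing of other CAF lines.

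The NDRG proteins share an α/β-hydrolase fold but lack the catalytic residues of the enzymes with that fold. NDRG1 is known for its induction by low oxygen, by iron chelators and by other stresses, for its repression by MYC proteins, and as a suppressor of metastasis in several carcinomas, and its loss causes a hereditary neuropathy. NDRG2 is mostly known from astrocytes and as a candidate tumor suppressor, NDRG3 as a protein degraded in the presence of oxygen and stabilised by lactate, and NDRG4 from brain and heart.

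FPKM (fragments scaled to transcript length and to the mapped total of the library) were calculated by the authors and are comparable between genes per length. The values hold no counts, so the depth is unknown, and they summed to 660604 to 701406 per sample. The epithelial keratin genes KRT8 and KRT18 were at mean levels of 3587 and 2401 FPKM after CAFS-CM and of 3080 and 1943 FPKM after CAFR-CM (limma adjusted p = 0.0586 and 0.0114). The 6 epithelial markers summed to 5922 to 6163 and to 4959 to 5172 FPKM, with KRT18 and KRT19 lower, EPCAM and CDH1 higher and the other 2 not called. Of 11 fibroblast markers, PDPN and FAP were listed at 0 in every sample and COL1A2 was at 0.00667 FPKM on average after CAFS-CM and at 0 after CAFR-CM. The 11 markers summed to 41.6 to 47.5 FPKM after CAFS-CM and to 53.4 to 59.4 FPKM after CAFR-CM, mostly COL1A1 and COL3A1. COL1A1 rose from 20.4 ± 0.848 to 29.0 ± 1.16 FPKM (0.49 on the log2 scale, limma adjusted p = 7.32e-04), COL3A1 was at 21.4 ± 1.44 and 24.6 ± 2.88 FPKM (adjusted p = 0.186), and the part of these markers in the results was not tested. The 6 leukocyte markers summed to 1.88 to 2.30 FPKM after CAFS-CM and to 1.68 to 2.63 FPKM after CAFR-CM, and PTPRC, the pan-leukocyte marker, averaged 0.00333 and 0.00667 FPKM.

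The family was selected on the difference in FPKM between CAFR-CM and CAFS-CM, so the values of its members in that comparison are a description and carry no p-value. NDRG1 was low after CAFS-CM, at 3.31, 3.54 and 3.36 FPKM in replicates 1 to 3, and high after CAFR-CM, at 49.1, 55.7 and 44.1 FPKM. The lowest CAFR-CM sample lay 40.6 FPKM above the highest CAFS-CM sample. The means were 3.40 ± 0.121 and 49.6 ± 5.82 FPKM (SD, n = 3 per group), a ratio of 14.6 that ran from 12.5 to 16.8 over the 9 pairs of samples. On the log2(FPKM + 1) scale, which understates the change of low values, the difference was 3.52 (standard error 0.08). It was the 7th highest of the 23608 genes tested. In total RNA of a culture, a higher level per cell and a larger share of cells with the transcript cannot be told apart.

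NDRG4 was at 10.52, 11.33 and 10.78 FPKM after CAFS-CM and at 15.38, 14.57 and 14.53 FPKM after CAFR-CM. The groups did not overlap, and the gap between them was 3.20 FPKM. The means were 10.9 ± 0.414 and 14.8 ± 0.480 FPKM (SD, n = 3), a ratio of 1.36 and a log2 difference of 0.41 (standard error 0.05).

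NDRG3 was at 17.3, 18.85 and 18.53 FPKM after CAFS-CM and at 19.38, 20.73 and 20.42 FPKM after CAFR-CM. Here the groups were only 0.53 FPKM apart. The means were 18.2 ± 0.818 and 20.2 ± 0.707 FPKM (SD, n = 3), a ratio of 1.11. The log2 difference of 0.14 (standard error 0.05) was 0.04 when the samples were scaled by median-of-ratios factors.

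NDRG2 was the lowest of the 4 in every sample, at 0.36, 0.42 and 0.58 FPKM after CAFS-CM and at 0.98, 1.18 and 0.90 FPKM after CAFR-CM. Its groups did not overlap either. The means were 0.453 ± 0.114 and 1.02 ± 0.144 FPKM (SD, n = 3), a ratio of 2.25 whose pairs ran from 1.55 to 3.28. The SD was 25.1% of the mean after CAFS-CM, against 3.55% for NDRG1, 4.49% for NDRG3 and 3.80% for NDRG4. The log2 difference was 0.48 (standard error 0.10) with a pseudocount of 1 and 1.03 with a pseudocount of 0.1.

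Starts of NDRG2 and NDRG4 transcripts are shown because promoters of both genes are known to be methylated in carcinomas (NDRG4 in colorectal cancer above all). RefSeq (GRCh38.p14) gave 300-base windows for 5 starts of NDRG2 and 4 of NDRG4, from position -250 to position 50 around the start. The window with the most CpG dinucleotides is printed for each gene, 5′ to 3′ on the gene's strand, with each CpG in capitals: chr14:21025012-21025311 (minus strand) and chr16:58463465-58463764 (plus strand).
NDRG2: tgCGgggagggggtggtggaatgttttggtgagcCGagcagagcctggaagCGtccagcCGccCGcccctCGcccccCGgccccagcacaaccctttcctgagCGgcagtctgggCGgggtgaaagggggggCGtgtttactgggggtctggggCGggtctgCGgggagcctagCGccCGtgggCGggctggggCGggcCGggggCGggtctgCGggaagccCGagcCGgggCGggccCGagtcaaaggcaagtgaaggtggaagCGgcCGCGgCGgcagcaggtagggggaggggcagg
NDRG4: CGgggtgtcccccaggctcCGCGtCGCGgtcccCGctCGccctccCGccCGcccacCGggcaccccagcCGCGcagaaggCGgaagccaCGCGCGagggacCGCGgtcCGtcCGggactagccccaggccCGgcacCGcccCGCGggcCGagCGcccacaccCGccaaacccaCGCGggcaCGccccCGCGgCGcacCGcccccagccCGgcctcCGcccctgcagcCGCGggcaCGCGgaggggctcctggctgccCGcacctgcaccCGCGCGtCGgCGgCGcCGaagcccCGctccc

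The NDRG2 window has 27 CpG and 74.3% GC, and 71.8% of 35116 windows of this length have fewer CpG. The NDRG4 window has 49 CpG and 83% GC, and 98.4% of windows have fewer, against a median of 14. Other starts of the same genes are poorer, down to 4 CpG in NDRG2 and 7 in NDRG4. Which start is used in Panc-1 cells was not measured by these gene-level values, nor was methylation. The ACGTG form of the core of the hypoxia response element was searched on both strands, but its GCGTG form was not. The E-box bound by MYC (CACGTG, which holds ACGTG within it) and the AP-1 site (TGANTCA) were searched likewise. The NDRG2 windows at chr14:21025012-21025311 and chr14:21025056-21025355 overlap, so the 9 windows are not all separate. None of the 9 windows holds any of the 3 that were searched. Of all windows, 21.4%, 7.26% and 7.71% hold ACGTG, the E-box and the AP-1 site in that order. This says only that these letters are not in these windows. No promoter of NDRG1 or NDRG3 was examined.

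**Figure D1:**
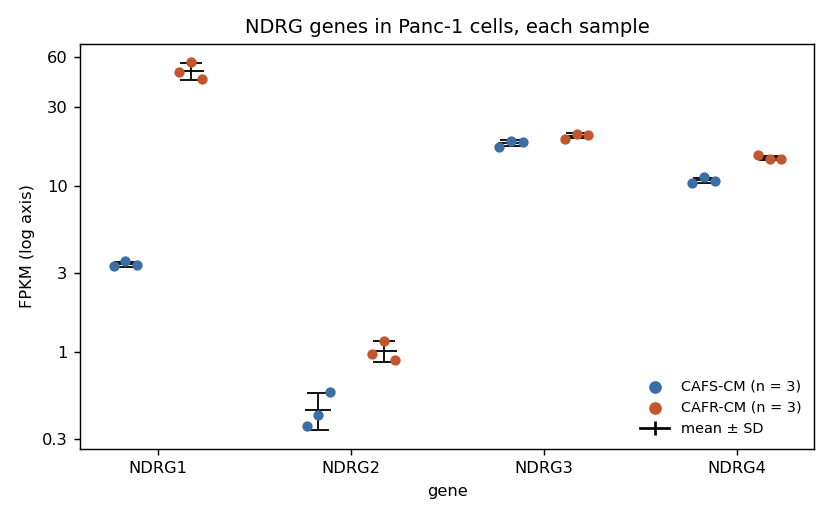
FPKM (log axis) of NDRG1, NDRG2, NDRG3 and NDRG4 in the 3 CAFS-CM and 3 CAFR-CM samples, with the mean and SD of each group in black. NDRG1 moved from 3.40 to 49.6 FPKM on average, while NDRG3 lay at 18.2 and 20.2 FPKM.

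All 4 genes thus had groups that did not overlap, with CAFR-CM higher, as did 26.4% of the 23608 genes tested. In the fit over all genes, 15.1% were called higher and 11.1% lower in limma (adjusted p under 0.05; 3560 and 2626 genes), 26.2% together. These were 2692 and 3987 with median-of-ratios factors, and 2330 were higher without CAFS-CM replicate 2. CAFS-CM replicate 1 had the lowest value of its group for each of the 4 genes and the largest FPKM total of its group, 691568. CAFR-CM replicate 2 had the highest value of its group for NDRG1, NDRG2 and NDRG3 and the smallest total of its group, 666560. With equal totals the log2 differences of NDRG1, NDRG2, NDRG3 and NDRG4 were 3.50, 0.47, 0.12 and 0.39.

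**Figure D2:**
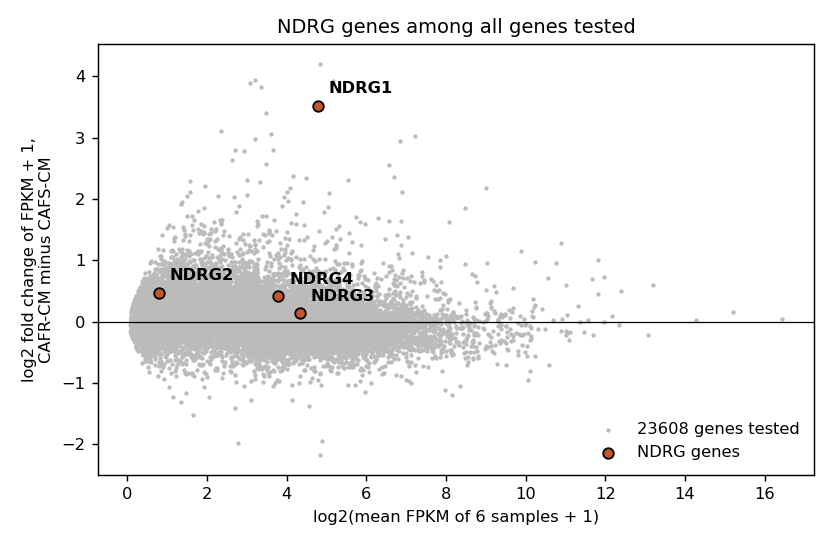
Log2 fold change (CAFR-CM minus CAFS-CM, on the log2(FPKM + 1) scale) against the log2 of the mean FPKM plus 1, for the 23608 genes tested (grey) and the 4 NDRG genes. NDRG1, at 3.52, lies far above most genes of its level, and NDRG2, NDRG3 and NDRG4, at 0.48, 0.14 and 0.41, lie inside the grey cloud.

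The order of levels within the family changed at its top. After CAFS-CM it was NDRG3, NDRG4, NDRG1 and NDRG2, with no overlap between neighbours in that order (the lowest NDRG3 value was 17.3 and the highest NDRG4 value 11.3 FPKM). After CAFR-CM it was NDRG1, NDRG3, NDRG4 and NDRG2, again without overlap. The summed level of the family was 33.0 ± 1.35 FPKM after CAFS-CM and 85.7 ± 6.16 FPKM after CAFR-CM (SD, n = 3). The sum of NDRG2, NDRG3 and NDRG4 alone was 29.6 ± 1.24 and 36.0 ± 0.399 FPKM. NDRG1 made up 10.1 to 10.5% of the family sum after CAFS-CM and 55.2 to 60.4% after CAFR-CM, while NDRG3 made up 54.9 to 55.7% and 22.5 to 25.5%. NDRG1 was at 0.187 ± 0.00507 times the level of NDRG3 after CAFS-CM and at 2.46 ± 0.271 times after CAFR-CM. Among 14296 protein-coding genes tested, the mean of NDRG1 exceeded that of 30.3% after CAFS-CM and of 87.8% after CAFR-CM.

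**Figure D3:**
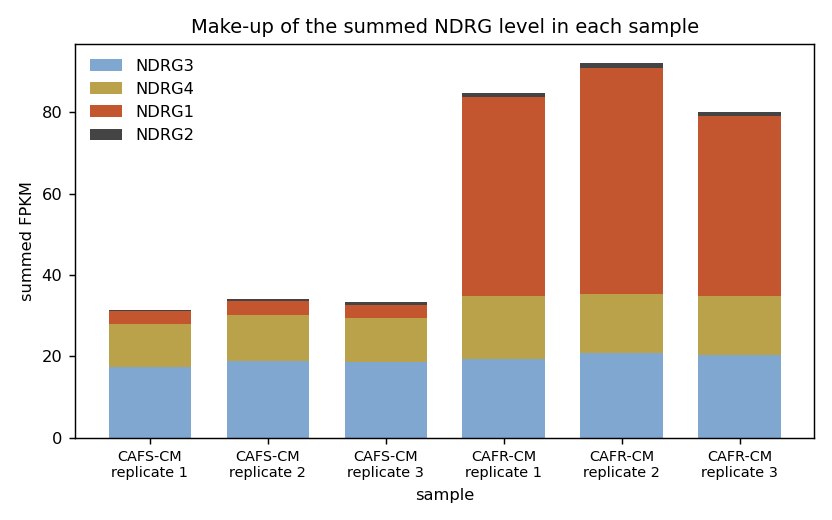
Summed FPKM of the NDRG genes in each of the 6 samples, each bar split by gene. The NDRG1 part makes up 10.1 to 10.5% of a CAFS-CM bar and 55.2 to 60.4% of a CAFR-CM bar, and NDRG2 is the thin part on top.

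The genes lie on 4 chromosomes of GRCh38 (GENCODE v44). NDRG1 is on chromosome 8 from 133237175 to 133302022, NDRG2 on chromosome 14 from 21016763 to 21070872 and NDRG3 on chromosome 20 from 36651766 to 36746090, all on the minus strand. NDRG4 is on chromosome 16 from 58462846 to 58513628 on the plus strand. The canonical transcripts of NDRG1, NDRG2 and NDRG3 have 16 exons each and that of NDRG4 has 15. They hold 3025, 2978, 2971 and 3208 exonic bases in the order NDRG1 to NDRG4. On the opposite strand to NDRG2 lies TPPP2, whose span holds 1584 exonic bases of NDRG2 transcripts. TPPP2 was not analysed here. ARHGEF40, also on the opposite strand, holds 45 such bases and was at means of 4.91 and 3.98 FPKM after CAFS-CM and CAFR-CM. The sources used here do not say whether the counting used the strand, so reads of NDRG2 may include reads of these partners. On the strand of NDRG1, the span of an annotated long noncoding RNA gene holds 753 exonic bases of NDRG1 transcripts.

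Genes next to the NDRG genes changed in both directions or were not called. Of 16 protein-coding neighbours (the nearest 2 by start position in each direction from each gene, of which TPPP2 and RNASE13 lie within the span of NDRG2), 9 could be tested, of which 1 was higher and 4 lower in limma (adjusted p under 0.05). Of all genes tested, 15.1% were higher and 11.1% lower, and 9 neighbours are too few to set against these shares. Around NDRG1, the sialyltransferase gene ST3GAL1 rose from 6.58 ± 0.169 to 8.33 ± 0.156 FPKM (0.30 on the log2 scale, limma adjusted p = 0.00793). The other neighbours of NDRG1 were ZFAT, at 4.26 ± 0.366 and 4.17 ± 0.0896 FPKM (log2 fold change -0.02), and CCN4 and SLA, which were near 0. All 3 neighbours of NDRG3 that were tested fell, namely RAB5IF by 0.32, the kinetochore gene DSN1 by 0.39 and SOGA1 by 0.37 on the log2 scale (adjusted p = 0.00309, 0.00815 and 5.25e-04 from limma). METTL17, beside NDRG2, fell by 0.38. Of the neighbours of NDRG4, GINS3, SETD6 and CNOT1 were not called (log2 fold changes of -0.20, -0.31 and 0.05).

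NDRG1 is named for the MYC proteins that repress it, and the called genes of the MYC network went both ways. Of 10 of its genes tested, 2 were higher, 2 lower and 6 not called, beside 15.1% higher and 11.1% lower of all genes, with a median log2 fold change of -0.08 beside 0.06 over all genes tested. MYC was at 36.25, 36.93 and 36.56 FPKM after CAFS-CM and at 32.25, 27.95 and 27.72 FPKM after CAFR-CM. It was lower in each CAFR-CM sample. The log2 difference was -0.31 with a standard error of 0.06, and limma gave an adjusted p of 0.0106. MYCN was at 0.0233 and 0.0300 FPKM on average and was not tested. MXI1, which encodes an antagonist of MYC, rose from 3.37 ± 0.0231 to 8.91 ± 0.215 FPKM (SD, n = 3; limma adjusted p = 5.23e-05), and MXD4, another antagonist, by 0.31 on the log2 scale (adjusted p = 0.0158, and 0.0552 without CAFS-CM replicate 2 or 0.0547 with median-of-ratios factors). MLX fell by 0.19 (limma adjusted p = 0.0322), a call lost with cyclic loess, with the replicate block and without each of the 6 samples in turn (0.0512 to 0.0870). The network then had 1 lower gene without CAFS-CM replicate 1, 2 or 3 or CAFR-CM replicate 1 or 2, and 1 higher gene without CAFS-CM replicate 2. The MYC partner gene MAX was at 26.8 ± 1.18 and 23.3 ± 3.63 FPKM (adjusted p = 0.211).

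Of 11 other transcription factor genes tested that are known to act on NDRG1, 1 was higher and 3 lower. Of all genes tested, 15.1% were higher and 11.1% lower. The median log2 fold change of the 11 genes was 0.01, beside 0.06 over all genes tested. ATF4, which drives the response to amino acid shortage, rose from 121 ± 1.35 to 213 ± 6.90 FPKM (limma adjusted p = 3.05e-05). EPAS1, which encodes HIF-2α, was 12.62 to 13.26 FPKM after CAFS-CM and fell to a mean of 6.64 ± 0.176 FPKM, a log2 fold change of -0.88 (limma adjusted p = 9.52e-05). HIF1A and SP1 fell by 0.27 and 0.21 on the log2 scale (adjusted p = 0.00494 and 0.00827). HIF proteins are controlled mainly by their stability, which RNA does not measure. USF2 was at 143 ± 6.42 and 158 ± 8.64 FPKM (adjusted p = 0.108).

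The genes that share tumor hypoxia signatures with NDRG1 were mostly higher. Of 24 such genes tested, all of them other than NDRG1, 16 were higher and 3 lower, beside 15.1% and 11.1% of all genes, and their median log2 fold change was 0.74. The list was chosen with the rise of hypoxia genes in these samples known, so its direction is not independent evidence. PDK1, which shuts pyruvate out of the mitochondria, rose from 5.15 ± 0.386 to 26.7 ± 1.62 FPKM (SD, n = 3; 2.17 on the log2 scale, limma adjusted p = 7.75e-06). P4HA1, a collagen prolyl hydroxylase gene, rose by 2.09, the mitochondrial protein gene FAM162A by 1.72, the mitophagy receptor gene BNIP3 by 2.55 and the glucose transporter gene SLC2A1 by 1.69 on the log2 scale. Each of these 5 ratios of means (5.19, 4.54, 3.82, 6.03 and 3.30) was below the 14.6 of NDRG1, whose family was selected on this comparison. LOX and EGLN3, also in the list, had larger ratios than these 5 (8.81 and 7.48), from means of 0.423 and 0.09 FPKM after CAFS-CM. The hypoxia-inducible gene CA9, which is not in the list, had a log2 difference of 3.95, above the 3.52 of NDRG1. Not every gene of the list was higher. The tubulin gene TUBB6 fell from 102 ± 3.84 to 76.6 ± 3.36 FPKM (limma adjusted p = 0.00106), and ACOT7 and CDKN3 fell by 0.19 and 0.24 on the log2 scale (adjusted p = 0.00929 and 0.0391). With cyclic loess ACOT7 was at -0.091 (adjusted p = 0.0942). The call of CDKN3 was lost with cyclic loess, equal totals or no filter, and without CAFS-CM replicate 1, 2 or 3 or CAFR-CM replicate 1 or 3 (adjusted p = 0.0536 to 0.0902). ADM, the adrenomedullin gene, was at 107 ± 2.06 and 103 ± 0.924 FPKM (adjusted p = 0.280), and MIF at 712 ± 45.6 and 815 ± 72.7 FPKM (adjusted p = 0.120).

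**Figure D4:**
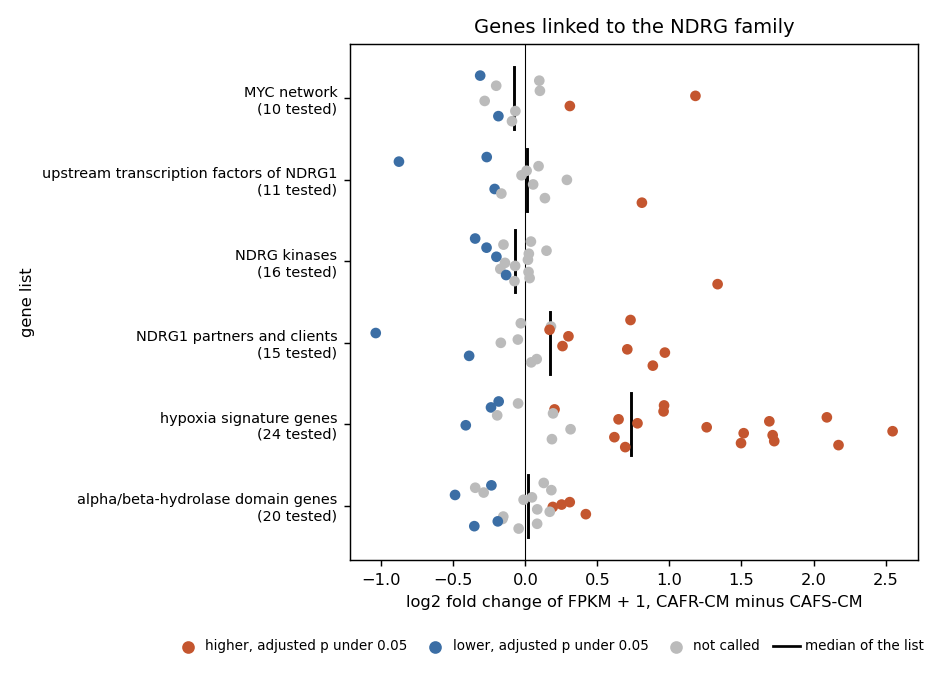
Log2 fold change (CAFR-CM minus CAFS-CM, on the log2(FPKM + 1) scale) of each gene tested in the 6 lists of genes linked to the NDRG family, with red for higher and blue for lower in limma (adjusted p under 0.05), grey for not called and a black line for the median of each list. The median of the 24 hypoxia signature genes is 0.74, and that of every other list lies between -0.08 and 0.17.

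NDRG1 protein is phosphorylated by SGK1 and then by GSK3, and SGK1 is switched on by the kinase complex mTORC2. Of 16 genes of these kinases and of mTOR subunits, 1 was higher and 4 lower, beside 15.1% and 11.1% of all genes. The median log2 fold change of the 16 genes was -0.07, beside 0.06 over all genes tested. SGK1 was at 40.4, 38.6 and 41.1 FPKM after CAFS-CM and at 30.2, 31.7 and 31.8 FPKM after CAFR-CM, lower in every sample. The log2 difference was -0.35 with a standard error of 0.04 (limma adjusted p = 0.00145), so the kinase gene fell while the gene of its substrate NDRG1 was at the higher level. GSK3A fell by 0.27 and AKT2 by 0.20 on the log2 scale (adjusted p = 0.00857 and 0.0102), but with cyclic loess scaling AKT2 was at -0.078 (adjusted p = 0.204). MLST8, an mTOR subunit gene, fell by 0.13 (adjusted p = 0.0207, and 0.0506 to 0.0770 without CAFS-CM replicate 1, 2 or 3 or CAFR-CM replicate 2), and was at -0.036 with cyclic loess (adjusted p = 0.497). DEPTOR, which encodes an inhibitor of mTOR complexes, was at 10.2, 10.2 and 10.1 FPKM after CAFS-CM and at 27.2, 27.9 and 26.4 FPKM after CAFR-CM. The log2 difference was 1.33 with a standard error of 0.04 (limma adjusted p = 7.53e-06). AKT1 was at 91.6 ± 1.96 and 93.2 ± 0.965 FPKM (adjusted p = 0.623).

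Of 15 genes tested whose products bind NDRG1 or are known to change with it, 7 were higher and 2 lower. Of all genes tested, 15.1% were higher and 11.1% lower. The median log2 fold change of the 15 genes was 0.17, beside 0.06 over all genes tested. CDH1, which encodes E-cadherin, whose recycling involves NDRG1, rose from 3.11 ± 0.192 to 5.83 ± 0.529 FPKM (SD, n = 3; 0.73 on the log2 scale, limma adjusted p = 0.00139). The metastasis suppressor gene CD82 rose from 1.27 ± 0.0666 to 2.70 ± 0.185 FPKM, and ATF3, a stress-induced repressor gene, from 1.85 ± 0.484 to 4.53 ± 0.547 FPKM (adjusted p = 0.00155 and 0.00413). ERRFI1, an inhibitor of EGFR, rose by 0.30 on the log2 scale (adjusted p = 0.00256). PLLP, a myelin membrane protein gene whose place in this list is uncertain, rose by 0.88 (adjusted p = 0.00398). Of the lower genes, the chaperone gene HSPA8 fell by 0.39 (adjusted p = 0.00328). CTNNB1, which encodes β-catenin, was at 96.9 ± 1.53 and 94.8 ± 5.22 FPKM (adjusted p = 0.659).

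The NDRG genes were also set beside other genes with an α/β-hydrolase domain. The median log2 fold change of the 20 ABHD genes tested was 0.02, beside 0.06 over all genes tested. Of these 20, 4 were higher and 4 lower, beside 15.1% and 11.1% of all genes. Those higher were ABHD14B, ABHD11, ABHD12 and ABHD12B, at 0.42, 0.31, 0.25 and 0.19 on the log2 scale (adjusted p = 0.00107, 0.0120, 0.0101 and 0.0437 from limma). ABHD12B was near 0 (0.0400 ± 0.0265 and 0.187 ± 0.0153 FPKM) and passed the filter only through its CAFR-CM values. It was not tested when a CAFR-CM sample was left out. Its call was lost with equal totals, cyclic loess or the replicate block and without CAFS-CM replicate 1, 2 or 3 (adjusted p = 0.0580 to 0.184). ABHD6, a monoacylglycerol lipase gene, fell by 0.49, ABHD17C by 0.35, ABHD2 by 0.24 and ABHD17A by 0.19 (adjusted p = 0.00450, 0.00816, 0.00562 and 0.0211). The last had an adjusted p of 0.0709 and 0.0622 without CAFS-CM replicate 1 or 3, and was at -0.100 with cyclic loess (adjusted p = 0.156). No ABHD gene tested had a log2 fold change as far from 0 as the 3.52 of NDRG1, whose family was selected on this comparison. Those of NDRG2, NDRG3 and NDRG4 (0.48, 0.14 and 0.41) were no further from 0 than the -0.49 of ABHD6, with the pseudocount of 1. For NDRG2, at a mean of 0.453 FPKM after CAFS-CM, this depends on the pseudocount. With a pseudocount of 0.1 NDRG2 was further from 0 than ABHD6, which was at -0.51. The ratios of means were 2.25 for NDRG2 and 0.706 for ABHD6.

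The profile of NDRG1 over the 6 samples was compared with those of 11958 protein-coding genes with a mean of at least 1 FPKM, by the root-mean-square distance between log2(FPKM + 1) values centred on each gene's mean. The nearest 8 were CXCL8, CA9, C3, CCL20, CXCL1, LCN2, HMOX1 and ALDOC, at distances of 0.210 to 0.268. They encode chemokines (CXCL8, CCL20, CXCL1), a hypoxia-inducible carbonic anhydrase (CA9), complement and acute-phase proteins (C3, LCN2), heme oxygenase (HMOX1) and a glycolytic enzyme (ALDOC). Their log2 differences between the groups were 3.03 to 3.95, so the measure mostly takes genes with a group difference of like size, and the list is a description of values on which NDRG1 was selected. CXCL8, CA9, C3, CCL20 and LCN2 were below 1 FPKM on average after CAFS-CM (0.0667, 0.117, 0.937, 0.05 and 0.347 FPKM) and reached the mean of 1 FPKM only through their CAFR-CM values. Levels were unlike: CXCL8 was at 0.06, 0.02 and 0.12 FPKM after CAFS-CM, where NDRG1 was at 3.31 to 3.54 FPKM, and HMOX1 was at 254, 272 and 265 FPKM after CAFR-CM, where NDRG1 was at 44.1 to 55.7 FPKM. No other NDRG gene had a log2 difference above 1 with the pseudocount of 1, and no profile was sought for them.

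**Figure D5:**
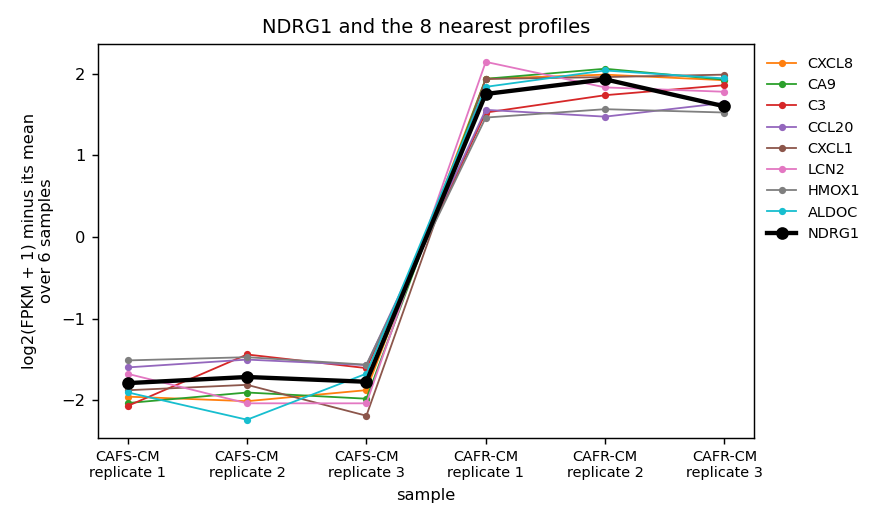
Log2(FPKM + 1) minus its mean over the 6 samples for NDRG1 (black) and the 8 protein-coding genes with the nearest profiles, by sample. All 9 genes are low in the 3 CAFS-CM samples and high in the 3 CAFR-CM samples, with NDRG1 highest in CAFR-CM replicate 2.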

How the data were processed

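RNA of 6 Panc-1 samples (3 CAFS-CM, 3 CAFR-CM) was sequenced from rRNA-depleted, strand-marked libraries. The authors cleaned the reads with SOAPnuke, aligned them by HISAT2 (version 2.0.4) against GRCh38.p13 and estimated gene levels by RSEM (version 1.2.12). Bowtie2 (version 2.2.5) is listed too among tools in the processing notes of the submitters. The deposited table holds FPKM per gene, scaled by the authors to transcript length and library total and rounded to 2 decimals. The sources used here give neither the gene annotation nor the strand setting. The 55272 circular RNA rows without values were left out.

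Genes over 0.1 FPKM in 3 or more samples (23608) were compared on log2(FPKM + 1) by limma (version 3.58.1, under R version 4.3.3) using eBayes with its trend option. Tests were two-sided, and p-values of all genes were adjusted together by the Benjamini-Hochberg method. The fit was tested on simulated data. A group had no overlap where its lowest value exceeded the highest of the other. The study's own test needs counts, which FPKM do not give, and no depth or counting interval could be set.

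The members and the gene lists (from textbook knowledge) were chosen with earlier results of these data known. Named in each list were the called genes with the smallest adjusted p, up to 5 each way, up to 2 of the highest level that were not called, and MYC, HIF1A, EPAS1, ATF4, SGK1 and CDH1. A gene that the rule names is not reported here. The neighbours that were tested and the 8 genes with profiles nearest to NDRG1 were named as well. MYCN, CCN4, SLA, TPPP2, RNASE13, ARHGEF40, LOX, EGLN3, COL1A2, COL3A1, PTPRC, PDPN and FAP fall outside this rule or were singled out after their values were seen. Positions and neighbours came from GENCODE v44. Alternatives were another pseudocount, other filters and scalings, a block for the replicate number and leaving out each sample.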

Additional observations from a re-analysis of the deposited data

How the results depend on the processing

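The log2 differences of NDRG1, NDRG2, NDRG3 and NDRG4 stayed above 0 in every alternative that gave a value. With a pseudocount of 0.1 those of NDRG1 and NDRG2 were 3.82 and 1.03. With cyclic loess scaling NDRG2 was at 0.35, and with median-of-ratios factors NDRG3 and NDRG4 were at 0.045 and 0.32. With a filter at a mean of 1 FPKM NDRG2 was not tested. With each sample left out in turn, NDRG1 ran from 3.43 to 3.60, NDRG2 from 0.42 to 0.54, NDRG3 from 0.10 to 0.17 and NDRG4 from 0.39 to 0.44.

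With median-of-ratios factors, 3987 genes were lower in all, and among the lists 8 ABHD genes, 5 hypoxia signature genes, 4 partners of NDRG1 and 4 MYC network genes were lower and 1 MYC network gene higher. With cyclic loess, 2854 genes were higher and 2536 lower in all. Under that setting 1 hypoxia signature gene was lower, and 2 kinase genes and 2 transcription factor genes were higher. Without each sample in turn, 2330 to 3328 genes were higher and 1799 to 2405 lower, and MYC network genes numbered 1 to 2 higher and 1 to 3 lower. The cause of these shifts was not tested. Counts of called neighbours, for which the alternatives were chosen after seeing the data, stayed at 1 higher and 4 to 5 lower.

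Of 659 values of the 51 other genes followed, over all alternatives, 6 changed sign, all of genes not called: with median-of-ratios factors AKT1 at -0.075 and CNOT1 at -0.044, with cyclic loess ADM at 0.054 and CTNNB1 at 0.071, without CAFR-CM replicate 1 CTNNB1 (-0.063 to 0.013 over the samples left out), and without CAFS-CM replicate 3 ZFAT (-0.058 to 0.033). A further 34 values lost their call and 10 gained one.

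Samples of like number were only weakly alike, with correlations of deviations of 0.0452, -0.0305 and 0.0949 for numbers 1 to 3 over 14820 genes. CAFS-CM replicates 1 and 3 correlated best with the CAFR-CM replicate of like number. CAFS-CM replicate 2 correlated best with CAFR-CM replicate 1 (0.0748). With the replicate block, 2891 genes were higher and 2340 lower, and 1 MYC network gene was lower. Without counts, the precision of low values such as those of NDRG2 is not known.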
